A study of Mus musculus with 15 samples.

Results

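The creatine and adenylate kinase energy shuttle was followed through 7 genes in the mouse left ventricle: the creatine kinases Ckm, Ckmt2 and Ckb, the creatine transporter Slc6a8, and the adenylate kinases Ak1, Ak3 and Ak4. They were taken by gene symbol from 54532 genes in the table, and all 7 were among the 12585 genes tested. The libraries came from poly-A RNA of female C57BL/6JRj mice of 12 to 18 weeks, with hearts collected on day 8 after the operation. Sham mice had a sham operation and MI mice a permanently tied coronary artery, which causes a myocardial infarction, and both were injected with the vehicle, Captisol at 20%. GSK mice were injected daily with GSK-343, an inhibitor of the histone methyltransferase EZH2, at 20 mg/kg in that vehicle, the first time at 6 h and the last on day 7. The sample names of the GSK group give the compound only, and these mice are described as infarcted from the treatment protocol. Each group had 5 libraries (n = 5) from independent mice according to the protocols, and Sham replicates 1 and 2 each mixed RNA of 2 animals. No group received the inhibitor without an infarction.

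Heart muscle uses ATP at sites of contraction and ion pumping and makes it in mitochondria. Creatine kinases at the mitochondrion pass the phosphate of ATP to creatine, phosphocreatine diffuses to the myofibrils and pumps, and cytosolic creatine kinases there turn it back into ATP. Adenylate kinases run beside this circuit: they make an ATP and an AMP from a pair of ADP molecules, and AMP is the signal read by the AMP-activated protein kinase. Heart cells take up most of their creatine from blood through the transporter that Slc6a8 encodes. Falling creatine kinase activity and creatine content are well known features of the failing heart.

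Between 21.5 M and 26.8 M fragments per library were assigned to genes. A single MI library, replicate 4, and a pair of GSK libraries, replicates 3 and 4, lay away from the rest of their groups on the second principal component (13.9% of the variance): transcripts encoded by mitochondrial DNA made up 40.6%, 46.4% and 48.7% of their FPKM total, against 23.2% to 27.6% in the other MI libraries, 31.8% to 32.7% in the other GSK libraries and 41.2% to 42.2% in Sham. Summed over the 12 cardiomyocyte markers, FPKM ranged from 18799 to 24578 in Sham, from 13621 to 26198 in MI and from 15956 to 23032 in GSK, so cardiomyocyte transcripts were abundant in every library. MI replicate 2 was the lowest and MI replicate 5 the highest of all 15. By the limma fit described in the methods, 12 of 12 macrophage or monocyte markers and 8 of 10 fibroblast markers were higher in MI against Sham. Of the 12 cardiomyocyte markers 6 were lower and 1 was higher. These counts stand beside 21.9% of all tested genes higher and 21.9% lower. In whole tissue, fewer cells of a type and less RNA per cell cannot be told apart. The 11 skeletal muscle fibre markers summed to 4.42 to 19.1 FPKM in Sham, 12.8 to 17.5 FPKM in MI and 13.7 to 30.6 FPKM in GSK, much of it Mybpc2, and none of the 3 tested passed; Myh4 and Tnnc2 were at 0 in all 15 libraries. Atrial markers were uneven in every group, with sums of 119 to 1786 FPKM in Sham, 294 to 2116 FPKM in MI and 352 to 2158 FPKM in GSK. Of the 5 tested only Nppa passed, higher in MI against Sham (mean 303 FPKM in Sham and 1159 FPKM in MI, limma adjusted p = 0.0291). Nppa was thus most of the mean MI sum of 1358 FPKM. The median log2 difference of the 5 tested was -1.88, so the MI sums do not stand for the list as a whole. In Sham the sums were 1386 and 1786 FPKM in replicates 3 and 4 and at most 487 FPKM in the others, and Bmp10, which was not tested, reached 94.9 FPKM in Sham and at most 0.0166 FPKM in MI.

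Per kilobase of the deposited gene length, the order in Sham hearts was Ckmt2, Ckm, Ak1, Slc6a8, Ak3, Ckb and Ak4. Mean levels there were 1428 ± 93.6 FPKM for Ckmt2, 348 ± 50.2 FPKM for Ckm, 205 ± 9.66 FPKM for Ak1, 48.0 ± 2.88 FPKM for Slc6a8, 37.0 ± 3.59 FPKM for Ak3, 22.5 ± 1.53 FPKM for Ckb and 12.9 ± 1.62 FPKM for Ak4 (SD, n = 5). No neighbours in this order overlapped in Sham. Ckmt2 ranked 27th and Ckm 122nd of all genes by mean Sham FPKM. In MI hearts Ckb, with a mean of 38.7 ± 3.78 FPKM, stood above Ak3, with 30.4 ± 6.53 FPKM, although their libraries overlapped; Ckm overlapped Ak1, and Slc6a8 overlapped Ckb. In GSK hearts Slc6a8, Ak3 and Ckb, with means of 44.2, 36.7 and 32.6 FPKM, formed a chain of overlapping ranges.

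**Figure D1:**
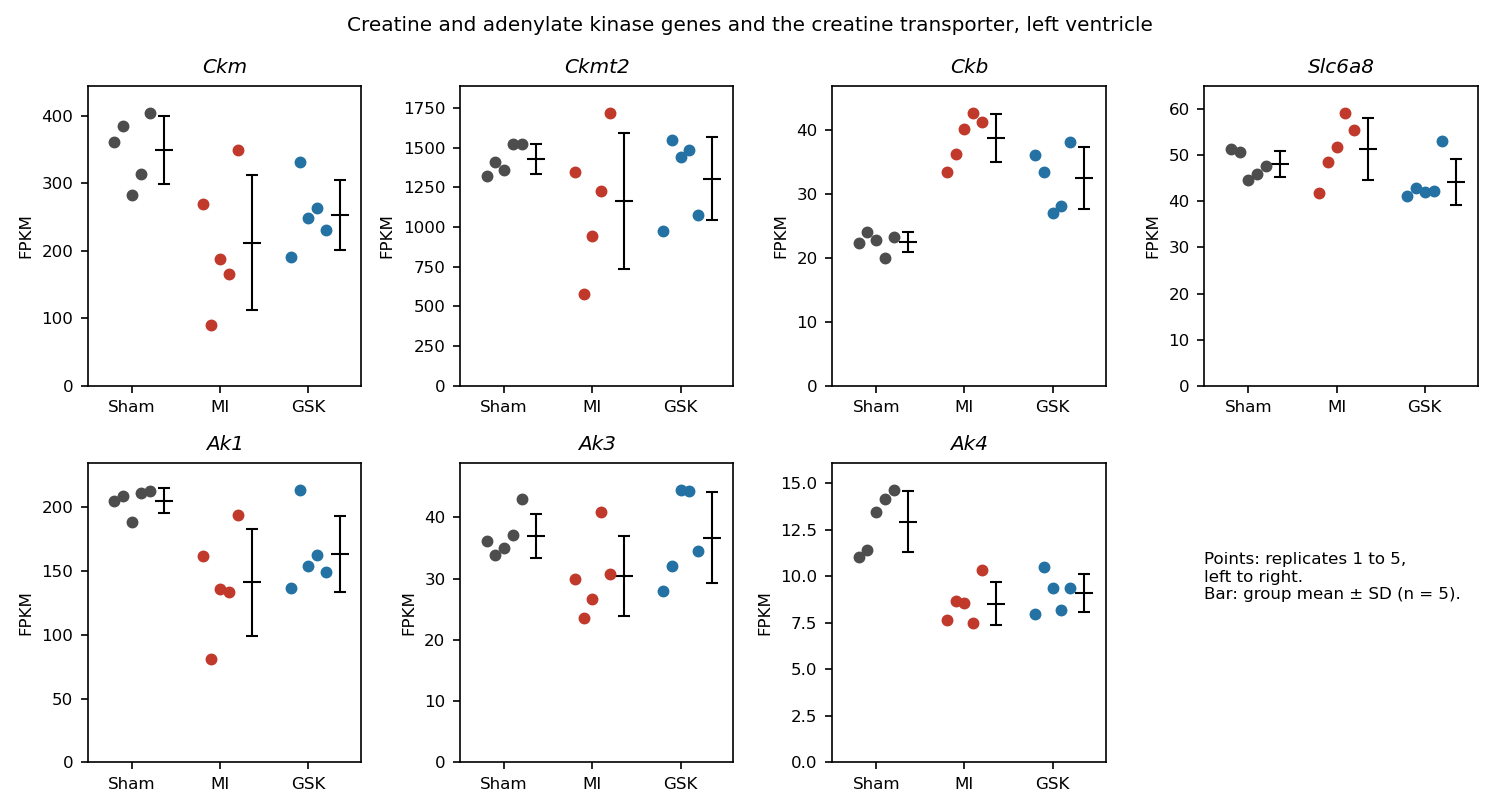
FPKM of each gene (vertical axis, linear, from 0) in the 5 Sham, 5 MI and 5 GSK libraries; points are replicates 1 to 5 from left to right and the bar is the group mean ± SD. Ckb lies between 33.5 and 42.6 FPKM in MI and no higher than 24.0 FPKM in Sham, while Ckm and Ckmt2 spread widely in MI, from 89.8 to 349 FPKM and from 577 to 1716 FPKM.

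MI against Sham asks what infarction changes at day 8. The cytosolic creatine kinases moved in opposite directions: the muscle form Ckm fell and the brain form Ckb rose. Ak1 and Ak4 also fell. Ckmt2, Slc6a8 and Ak3 did not pass the test. In all 4 of 7 members passed, 1 higher and 3 lower, beside 43.8% of all tested genes (21.9% higher and 21.9% lower), so the share of members called is not far from that of genes at large. The median log2 difference of the 7 members was -0.39, and that of all tested genes -0.02. The groups did not overlap for 2 of 7 members, Ckb and Ak4, beside 29.8% of tested genes.

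Ckm encodes the cytosolic creatine kinase of muscle, part of which sits at the M-band of the sarcomere. The gene lies on mm10 at chr7:19404776-19422841, plus strand. It stood at 360.4, 384, 282, 313 and 403 FPKM in Sham replicates 1 to 5, at 268, 89.8, 187, 166 and 349 FPKM in MI, and at 191, 331, 248, 263 and 231 FPKM in GSK. Of the MI libraries 4 were below every Sham library, and replicate 5 lay inside the Sham range. MI replicate 2, the lowest for Ckm, also had the lowest sum of cardiomyocyte markers. MI replicate 5, the highest MI library for Ckm, had the highest sum. MI replicate 4 went the other way, with a sum of 20725 FPKM and Ckm at 166 FPKM. In MI replicate 1 they were 18968 and 268 FPKM. The part of the marker sums in the difference was not tested. Ckm fell by 0.84 ± 0.28 on the log2(FPKM + 1) scale in MI against Sham (SE, n = 5 a group, limma adjusted p = 0.0227). Without MI replicate 2 the difference was -0.57 (adjusted p = 0.0443). The call was lost at nearly the same difference without Sham replicate 5 (-0.79, adjusted p = 0.0530), without the mixed Sham libraries (-0.77, 0.0953) and without the 3 libraries that stand apart (-0.79, 0.0631).

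Ckb encodes the brain-type cytosolic creatine kinase, which also pairs with the muscle form in the heart, and lies on mm10 at chr12:111669361-111672338, minus strand. It stood at 22.3, 24.0, 22.8, 20.0 and 23.3 FPKM in Sham replicates 1 to 5, at 33.5, 36.2, 40.1, 42.6 and 41.3 FPKM in MI, and at 36.1, 33.4, 27.0, 28.1 and 38.1 FPKM in GSK. Every MI and every GSK library was above every Sham library. Ckb rose by 0.76 ± 0.10 in MI against Sham (log2 scale, SE, limma adjusted p = 8.79e-05), a ratio of group means of 1.72. It passed the test in all 29 alternatives run, with differences of 0.71 to 1.12. Macrophage or monocyte markers summed to 319 to 397 FPKM in Sham, 689 to 1203 FPKM in MI and 467 to 1077 FPKM in GSK, and fibroblast markers to 265 to 373, 775 to 1951 and 476 to 1847 FPKM. Their part in the level of Ckb was not tested.

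Ckmt2 encodes the sarcomeric mitochondrial creatine kinase, held between the mitochondrial membranes, and lies on mm10 at chr13:91853387-91876885, minus strand. It stood at 1322, 1412, 1359, 1526 and 1524 FPKM in Sham replicates 1 to 5, at 1348, 577, 941, 1228 and 1716 FPKM in MI, and at 973, 1545, 1442, 1483 and 1078 FPKM in GSK. MI replicates 2, 3 and 4 were below every Sham library, replicate 1 lay within the Sham range and replicate 5 above it. The difference in MI against Sham was -0.39 ± 0.24 (log2 scale, SE, limma adjusted p = 0.200) and did not pass the test. Its 95% interval ran from -0.89 to 0.12. The difference was -0.16 without MI replicate 2. The other mitochondrial form, Ckmt1, was between 0 and 0.418 FPKM in the 15 libraries and was not tested.

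The 2 muscle forms of creatine kinase varied together over the libraries, as both did with Ak1, whose upstream sequences are not shown. The brain form rose. Sequences upstream of the RefSeq starts (GRCm38.p6) of the 3 creatine kinase genes are shown here. Each runs 5′ to 3′ over the 250 bases before the start, and capitals mark matches on either strand to TATAAA (the TATA box), to CANNTG (the E-box), to CCAAT (the CCAAT box) or to AAGGTCA (a nuclear receptor half-site). The RefSeq start of Ckm lies inside the deposited gene, whose own start is further upstream. The regions are chr7:19410844-19411093 on the plus strand for Ckm, chr13:91876886-91877135 on the minus strand for Ckmt2, and chr12:111672339-111672588 on the minus strand for Ckb.
Ckm: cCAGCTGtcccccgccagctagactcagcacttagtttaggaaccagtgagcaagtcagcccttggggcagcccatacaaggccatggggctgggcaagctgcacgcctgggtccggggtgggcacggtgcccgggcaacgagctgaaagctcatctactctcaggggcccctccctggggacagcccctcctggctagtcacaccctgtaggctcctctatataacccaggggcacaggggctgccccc
Ckmt2: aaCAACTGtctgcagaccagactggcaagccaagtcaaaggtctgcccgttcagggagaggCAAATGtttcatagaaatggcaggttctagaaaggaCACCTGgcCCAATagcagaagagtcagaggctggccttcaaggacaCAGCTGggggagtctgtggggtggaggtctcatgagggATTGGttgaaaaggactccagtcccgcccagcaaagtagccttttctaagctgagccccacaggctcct
Ckb: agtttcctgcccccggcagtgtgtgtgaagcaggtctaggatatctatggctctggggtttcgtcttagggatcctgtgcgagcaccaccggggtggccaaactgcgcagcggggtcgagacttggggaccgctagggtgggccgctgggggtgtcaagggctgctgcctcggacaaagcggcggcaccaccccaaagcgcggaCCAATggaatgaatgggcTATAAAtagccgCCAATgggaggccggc

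The Ckmt2 window holds 4 matches to CANNTG and 2 to CCAAT. The Ckm window holds 1 match to CANNTG, 249 bases before the start. It has no exact match to TATAAA, but the similar run tatataa, left in small letters, lies near its end. The Ckb window holds no CANNTG, and has TATAAA beginning 28 bases before the start and 2 matches to CCAAT, at 46 and 16 bases before it. No match overlaps another in these windows, and none of the 3 holds AAGGTCA. Of 32851 promoter windows of the same length, 66.2% hold CANNTG, 33.9% CCAAT, 12.4% TATAAA and 4.08% AAGGTCA. These are matches of letters only. Of the 7 members 6 had RefSeq promoters; Slc6a8 is named only.

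Slc6a8 encodes the sodium- and chloride-dependent creatine transporter of the plasma membrane and lies on mm10 at chrX:73673150-73682502, plus strand. It stood at 51.2, 50.6, 44.6, 45.9 and 47.7 FPKM in Sham replicates 1 to 5, at 41.8, 48.4, 51.8, 59.0 and 55.4 FPKM in MI, and at 41.0, 42.8, 41.9, 42.2 and 53.0 FPKM in GSK. The MI range contained the Sham range, and 4 of 5 GSK libraries were below every Sham library. The difference in MI against Sham was 0.09 ± 0.10 (log2 scale, SE, limma adjusted p = 0.513), with a 95% interval from -0.13 to 0.30. Among the members it had the smallest difference in this comparison.

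Ak1 encodes the main cytosolic adenylate kinase of muscle and lies on mm10 at chr2:32621758-32635058, plus strand. It stood at 205, 208, 188, 211 and 212 FPKM in Sham replicates 1 to 5, at 161, 80.6, 135, 134 and 194 FPKM in MI, and at 137, 213, 154, 163 and 149 FPKM in GSK. All MI libraries but replicate 5 were below every Sham library, as for Ckm, and replicate 2 was again the lowest. Ak1 fell by 0.59 ± 0.19 in MI against Sham (log2 scale, SE, limma adjusted p = 0.0180). Without the mixed Sham libraries the adjusted p was 0.0669 at a difference of -0.58. Without Sham replicates 3 and 4 together it was 0.0553 at -0.62.

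Ak4 encodes an adenylate kinase of the mitochondrial matrix and lies on mm10 at chr4:101419277-101466995, plus strand. It stood at 11.0, 11.4, 13.4, 14.1 and 14.6 FPKM in Sham replicates 1 to 5, at 7.65, 8.65, 8.55, 7.48 and 10.3 FPKM in MI, and at 7.99, 10.5, 9.36, 8.19 and 9.39 FPKM in GSK. Every MI and every GSK library was below every Sham library. Ak4 fell by 0.55 ± 0.10 in MI against Sham (log2 scale, SE, limma adjusted p = 0.000714). Unlike the values of Ckm and Ak1, that of MI replicate 2 was not the lowest of its group.

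Ak3 encodes the GTP:AMP phosphotransferase of the mitochondrial matrix and lies on mm10 at chr19:29020833-29047961, minus strand. It stood at 36.1, 33.8, 34.9, 37.1 and 43.0 FPKM in Sham replicates 1 to 5, at 29.9, 23.5, 26.7, 40.9 and 30.8 FPKM in MI, and at 27.9, 32.1, 44.5, 44.2 and 34.5 FPKM in GSK. The highest MI library was replicate 4 and the highest GSK libraries were replicates 3 and 4, the 3 libraries with the large mitochondrial share within their groups; its part in the level of Ak3 was not tested. With them the difference in MI against Sham was -0.30 ± 0.15 (log2 scale, SE, limma adjusted p = 0.121). Without them it was -0.41 (adjusted p = 0.00735), and without MI replicate 4 alone -0.41 (adjusted p = 0.0273).

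Some of these loci hold other genes, and since the strand setting is not given, reads of the partners cannot be told apart. On the opposite strand Ckm overlaps A930016O22Rik (0.383 FPKM on average), Ckmt2 overlaps 1700119I11Rik (6.50 FPKM), and Ak3 overlaps Cdc37l1 (9.97 FPKM) and 1700018L02Rik (0.222 FPKM). Cdc37l1 is the largest partner relative to its member by FPKM. Its deposited length is 12214 bases, against 3120 for Ak3, so FPKM understates its fragments relative to those of Ak3. The table also lists Ak3l2-ps, a processed pseudogene of the adenylate kinase family, at 1.73 FPKM, and Ckb-ps1 and Ckb-ps2 at 0.

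GSK against MI asks whether the inhibitor moved these genes in the infarcted heart. No member passed the test, as no gene of the 12585 did (0% called by limma; smallest adjusted p 0.0536). At an unadjusted p under 0.05 it was 1 of 7 members, Ckb, beside 21% of tested genes. With voom on recovered fragments 2 genes passed. Leaving out 1 library gave 0 to 391 genes, the most without MI replicate 1 (391) and GSK replicate 5 (287). No alternative called a member. No member's groups were free of overlap, beside 2.01% of genes.

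Ckb differed by -0.25 ± 0.10 in GSK against MI (log2 scale, SE, limma unadjusted p = 0.0291, adjusted p = 0.188). Of the GSK libraries replicates 2, 3 and 4 were below every MI library for Ckb, and replicates 1 and 5 lay within the MI range. Slc6a8 differed by -0.21 ± 0.10 (adjusted p = 0.255). The other 5 members had positive differences. They were 0.37 ± 0.28 for Ckm, 0.23 ± 0.24 for Ckmt2, 0.25 ± 0.19 for Ak1, 0.26 ± 0.15 for Ak3 and 0.08 ± 0.10 for Ak4, with adjusted p between 0.314 and 0.657. The intervals were wide for Ckm (-0.22 to 0.96) and Ckmt2 (-0.27 to 0.74), and narrower for Ak4 (-0.13 to 0.30).

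In GSK against Sham, Ckb and Ak4 passed the test, Ckb higher and Ak4 lower. These 2 of 7 members, 1 in each direction, stand beside 18.3% of tested genes (10.8% higher, 7.58% lower). The same 2 had groups without overlap, beside 18.4% of genes. Ckb rose by 0.50 ± 0.10 (log2 scale, SE, limma adjusted p = 0.00587) and Ak4 fell by 0.46 ± 0.10 (adjusted p = 0.00814). Without Sham replicates 3 and 4 together, the Sham libraries with the most atrial marker RNA, the differences were 0.46 and -0.40 and their adjusted p 0.0535 and 0.0736.

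The remaining 5 members did not pass in GSK against Sham. Ckm differed by -0.47 ± 0.28 (adjusted p = 0.241) and Ak1 by -0.34 ± 0.19 (adjusted p = 0.203). Fitted with these 2 groups alone, Ckm and Ak1 had the same differences and passed (limma adjusted p = 0.0407 and 0.0470). Their SE was then 0.15 and 0.12, because the main fit also takes its spread from the MI libraries. In the main fit Ckmt2 differed by -0.15 ± 0.24, Slc6a8 by -0.12 ± 0.10 and Ak3 by -0.03 ± 0.15. Any pair of these comparisons has a group in common (Sham, MI or GSK), so their values are set side by side only.

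**Figure D2:**
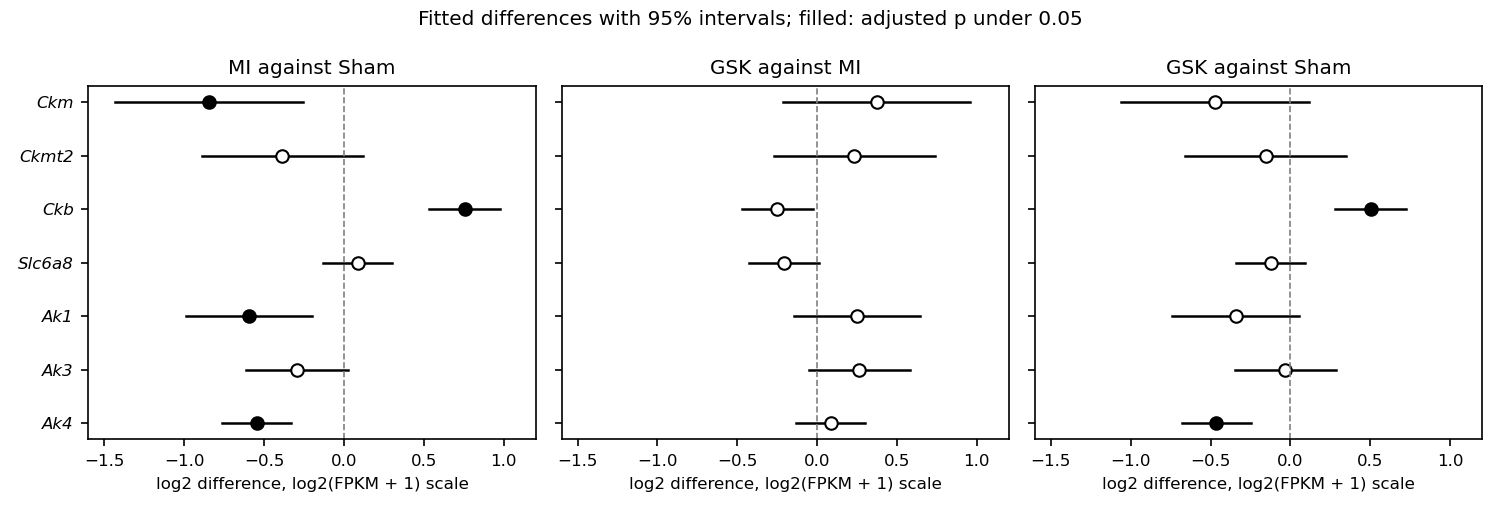
Fitted log2 difference of each gene (horizontal axis, log2(FPKM + 1) scale) with its 95% interval in the 3 comparisons; filled points passed at an adjusted p under 0.05. Ckb is at 0.76 and 0.50 and Ak4 at -0.55 and -0.46 against Sham, and every point of GSK against MI is open.

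The make-up of the creatine kinase transcripts is a ratio within a library, so it does not depend on how libraries are scaled. Ckb made up 6.14 ± 0.78% of the Ckm and Ckb FPKM in Sham hearts (SD, n = 5). The same share was 17.7 ± 7.5% for MI hearts and 11.7 ± 3.1% for GSK hearts. The libraries ranged from 5.47% to 7.49% in Sham, from 10.6% to 28.7% in MI and from 9.15% to 15.9% in GSK. Sham did not overlap either infarcted group, and MI and GSK overlapped each other. The highest share, in MI replicate 2, came with the lowest Ckm value and a Ckb value of 36.2 FPKM, below the MI mean of 38.7 FPKM. These shares are given without a test, since their parts were tested above.

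By FPKM, Ckmt2 supplied most of the creatine kinase transcripts in every group: 79.4 ± 2.28% of the sum of Ckmt2, Ckm, Ckb and Ckmt1 in Sham, 82.2 ± 1.89% in MI and 81.9 ± 1.76% in GSK. The level of this share depends on the deposited gene lengths, 1486 bases for Ckmt2 and 2913 for Ckm. So does the ratio of Ckmt2 to Ckm. In Sham replicate 1 the fragments were 43589 for Ckmt2 and 23301 for Ckm. The ratio of Ckmt2 to Ckm was 3.67, 3.68, 4.82, 4.88 and 3.78 in Sham replicates 1 to 5. It ran from 4.92 to 7.39 in MI and from 4.66 to 5.80 in GSK. All MI libraries were above all Sham libraries, but Sham replicates 3 and 4, with the highest atrial marker sums in Sham, came close, and they overlapped GSK. Of the summed Ak1, Ak3 and Ak4 FPKM, Ak1 made up 80.4 ± 1.39% in Sham, 77.6 ± 4.85% in MI and 77.9 ± 3.60% in GSK, with overlapping ranges.

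**Figure D3:**
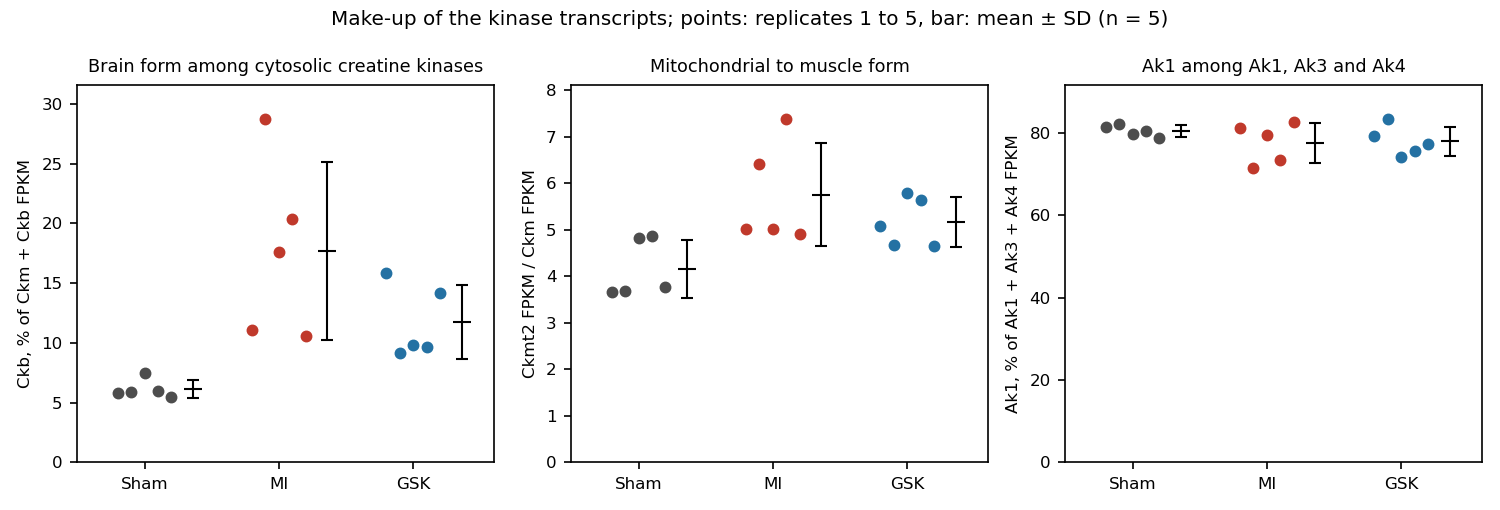
Ratios within each library (vertical axes from 0): Ckb as % of Ckm plus Ckb FPKM, Ckmt2 over Ckm, and Ak1 as % of Ak1 plus Ak3 plus Ak4 FPKM; points are replicates 1 to 5 and the bar is the mean ± SD. The Ckb share lies at or under 7.49% in Sham and at or above 9.15% in MI and GSK.

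Within the groups some members varied together. After subtracting each group's mean log2 value, Pearson's r over the 15 libraries was 0.96 for Ckm and Ak1, 0.92 for Ckmt2 and Ak1, and 0.90 for Ckm and Ckmt2 (Spearman's rho 0.90, 0.79 and 0.74). Without MI replicate 2, which is low for all of them, r was 0.91, 0.81 and 0.77 over 14 libraries. Ckb and Slc6a8 had r = 0.68, and Ckb had r of 0.01 with Ckm, -0.15 with Ckmt2 and 0.05 with Ak1. Ak3 had r = 0.60 with Ckmt2 and 0.33 with Ckm. These were 0.72 and 0.74 over the 12 libraries without the 3 that stand apart, and 0.47 and 0.0086 without MI replicate 2. Ak4 had r of at most 0.32 with any other member over the 15 libraries, and of 0.58 with Ak1 without MI replicate 2. These correlations describe libraries that share a tissue and a depth, and they carry no test.

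The tested genes most like each member by the same measure over 15 libraries were Tmem143, Fastk and Bcs1l for Ckm (r = 0.97 each) and Dele1, Dcun1d2 and Sucla2 for Ckmt2 (r = 0.98 to 0.99). For Ak1 they were Mtfp1 and Rhot2 (r = 0.99 and 0.98). For Ckb they were Ergic1, Ranbp10 and Slc39a1 (r = 0.91, 0.89 and 0.82), and for Slc6a8 Cystm1, Eif3h and E2f3 (r = 0.91, 0.89 and 0.87). For Ak3 they were Ecpas, Pnpt1 and Cops3 (r = 0.95, 0.94 and 0.94), which fell to 0.84, 0.80 and 0.82 without the 3 libraries that stand apart. For Ak4 they were Ormdl2, the pseudogene Tcea1-ps1 and Hyou1 (r = 0.90, 0.88 and 0.86). These genes were picked for the highest r among 12585 tested genes, so high values come with the ranking. Their r without MI replicate 2 is not given.

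**Figure D4:**
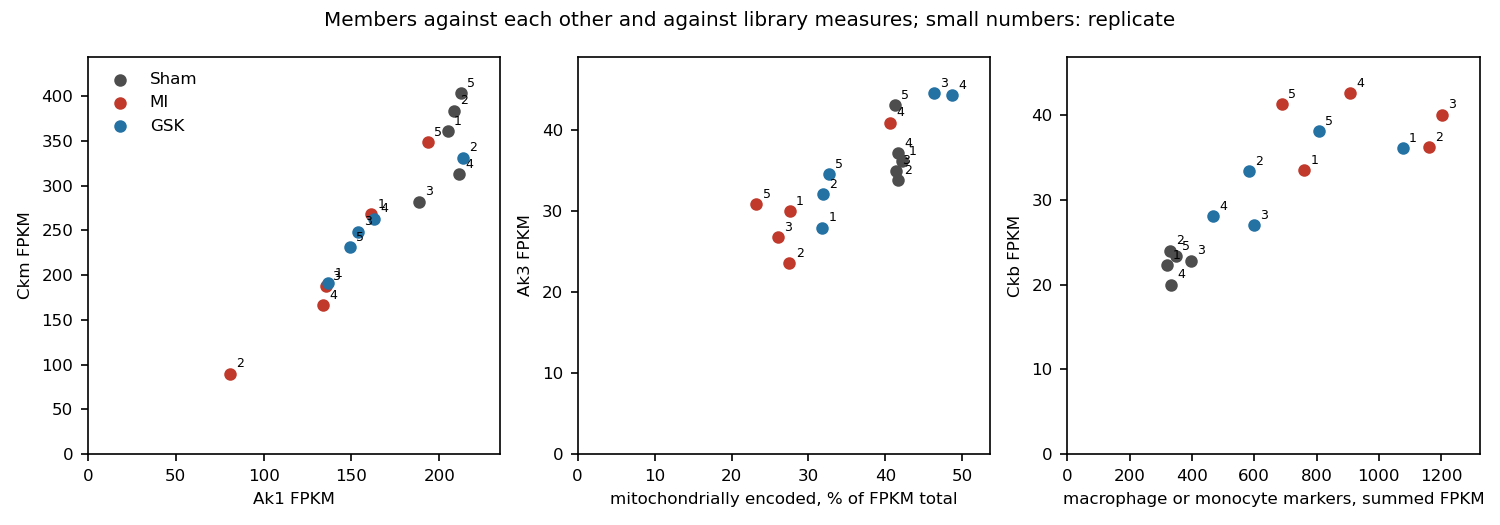
Each point is a library (number: replicate), coloured by group, on linear axes from 0: Ckm against Ak1 FPKM; Ak3 FPKM against the % of the FPKM total from mitochondrially encoded genes; Ckb FPKM against the summed FPKM of 12 macrophage or monocyte markers. Ckm and Ak1 lie along a line with MI replicate 2 at its low end (89.8 and 80.6 FPKM), and Ak3 is highest in GSK replicates 3 and 4.

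The counts below stand beside 21.9% of all tested genes higher and 21.9% lower in MI against Sham, and 10.8% higher and 7.58% lower in GSK against Sham. Creatine is made from arginine and glycine by the enzymes of Gatm and Gamt. Of these 2 genes, Gatm rose in MI, from 1.28 ± 0.43 to 2.66 ± 0.40 FPKM (log2 difference 0.69 ± 0.14, limma adjusted p = 0.000994), and Gamt did not pass (0.15 ± 0.16, adjusted p = 0.465). Gatm was also higher in GSK against Sham, by 0.61 ± 0.14 (adjusted p = 0.00827). All Gatm libraries were between 0.751 and 3.62 FPKM, a low level, where the pseudocount understates the change. Ak6, another adenylate kinase, was at 3.53 ± 0.48 FPKM in Sham and 2.88 ± 0.64 FPKM in MI and did not pass in any comparison.

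Among other nucleotide kinases 1 of 7 tested rose and 1 fell in MI against Sham. The nucleoside diphosphate kinase Nme1 rose by 0.44 ± 0.08 (limma adjusted p = 0.000433), and its mitochondrial relative Nme4 fell by 0.55 ± 0.15 (adjusted p = 0.00883). Of the 13 tested genes of AMP and adenosine turnover 6 rose (46.2%) and 2 fell (15.4%), beside 21.9% of tested genes each way, and their median log2 difference was 0.24, beside -0.02 over all tested genes. The falls were Nt5c1a, the cytosolic nucleotidase that makes adenosine from AMP, from 17.2 ± 2.64 to 6.79 ± 2.96 FPKM (-1.30 ± 0.21, adjusted p = 0.000241), and the adenosine kinase Adk (-0.39 ± 0.13, adjusted p = 0.0306). Ada, which deaminates adenosine, rose by 0.86 ± 0.21 (adjusted p = 0.00475), and the AMP deaminase Ampd2 by 0.73 ± 0.11 (adjusted p = 0.000127). Ada, counted among the 6 that rose, was at a low level: 0.4217 to 0.7416 FPKM in Sham and 1.104 to 3.033 FPKM in MI. Every Sham library was thus under the 1 FPKM of the filter, and Ada was tested only because it reached that level in infarcted hearts. Ampd2 was the only one of these 13 genes that passed in GSK against Sham (0.46 ± 0.11, adjusted p = 0.0101).

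The AMP-activated protein kinase senses AMP; of its 7 subunit genes and Stk11, the kinase that activates it, 2 of the 8 rose and 4 fell in MI against Sham. The catalytic subunit Prkaa2 fell by 0.70 ± 0.14 (limma adjusted p = 0.000874), from 25.4 ± 0.94 to 15.5 ± 3.34 FPKM. Prkag1 fell by 0.71 ± 0.20, Stk11 by 0.45 ± 0.16 and Prkab1 by 0.42 ± 0.14. The regulatory subunits Prkab2 and Prkag2 rose by 0.70 ± 0.27 and 0.52 ± 0.14. Prkab2 ranged from 10.2 to 45.7 FPKM in MI and lost its call in 17 of 29 alternatives. In GSK against Sham Prkag1 was lower (-0.72 ± 0.20) and Prkag2 higher (0.42 ± 0.14), with adjusted p of 0.0225 and 0.0464.

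Of 9 genes for exchange of ATP and phosphate across the mitochondrial membranes 2 rose and 3 fell in MI against Sham. The ATP-Mg/phosphate carriers Slc25a24 and Slc25a25 rose by 0.62 ± 0.16 and 0.42 ± 0.10 (limma adjusted p = 0.00715 and 0.00396). The outer membrane channels Vdac1 and Vdac3 fell by 0.50 ± 0.14 and 0.45 ± 0.13 (adjusted p = 0.0113 and 0.0122), and the phosphate carrier Slc25a3 by 0.45 ± 0.17 (adjusted p = 0.0438), a call lost in 19 of 29 alternatives. The heart form of the ATP/ADP exchanger, Slc25a4, was at 2240 ± 94.5 FPKM in Sham and 1680 ± 568 FPKM in MI and did not pass (-0.48 ± 0.20, adjusted p = 0.0667). Of this list only Slc25a24 passed in GSK against Sham (0.56 ± 0.16, adjusted p = 0.0292).

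At the sites where the phosphate is spent, the pumps and myosins differed among themselves. Of 5 ATPase genes 2 rose and 2 fell in MI against Sham. The calcium pump of the sarcoplasmic reticulum, Atp2a2, went from 2741 ± 249 to 1073 ± 408 FPKM (-1.44 ± 0.25, limma adjusted p = 0.000387), with no overlap. The adult myosin Myh6 fell by 0.84 ± 0.25 (adjusted p = 0.0152), a call lost in 5 of 29 alternatives (-0.26 with quantile normalization, adjusted p = 0.311). The fetal-type myosin Myh7 rose by 1.06 ± 0.39 (adjusted p = 0.0409) and the sodium pump subunit Atp1b1 by 0.42 ± 0.15 (adjusted p = 0.0393); these calls were lost in 14 and 11 of 29 alternatives. Myh6 and Myh7 are close copies that neighbour each other, so the division of their reads is uncertain. Among 3 tested M-band partners of muscle creatine kinase Myom2 was higher in MI (0.49 ± 0.18, adjusted p = 0.0335) and in GSK against Sham (0.55 ± 0.18, adjusted p = 0.0434), lost in 12 and 14 of 29 alternatives, and Myom1 and Fhl2 did not pass.

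Ak4 is known in other cells as a gene that responds to hypoxia, so hypoxia response genes were set beside it. Of 11 tested 3 rose (27.3%) and 2 fell (18.2%) in MI against Sham, close to the 21.9% each way of all tested genes, with a median log2 difference of -0.05. Slc2a1, a glucose transporter, rose by 0.74 ± 0.20, Ndufa4l2 by 0.62 ± 0.20 and Ldha by 0.46 ± 0.11 (limma adjusted p = 0.00855, 0.0197 and 0.00424). Egln1, the oxygen sensing prolyl hydroxylase, fell by 1.06 ± 0.13 (adjusted p = 3.6e-05), and Pdk1 by 0.43 ± 0.10 (adjusted p = 0.00351). In GSK against Sham 2 of the 11 passed, both lower: Egln1 (-0.61 ± 0.13, adjusted p = 0.0057) and Vegfa (-0.48 ± 0.12, adjusted p = 0.0172). In GSK against MI 0 genes of any of these lists passed. Many of the genes named from the lists overlap another annotated gene, among them Atp2a2, Myh6, Myh7, Prkag1, Prkag2, Slc2a1, Ampd2, Ak6, Myom1 and Fhl2, and their values are uncertain to that extent.

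**Figure D5:**
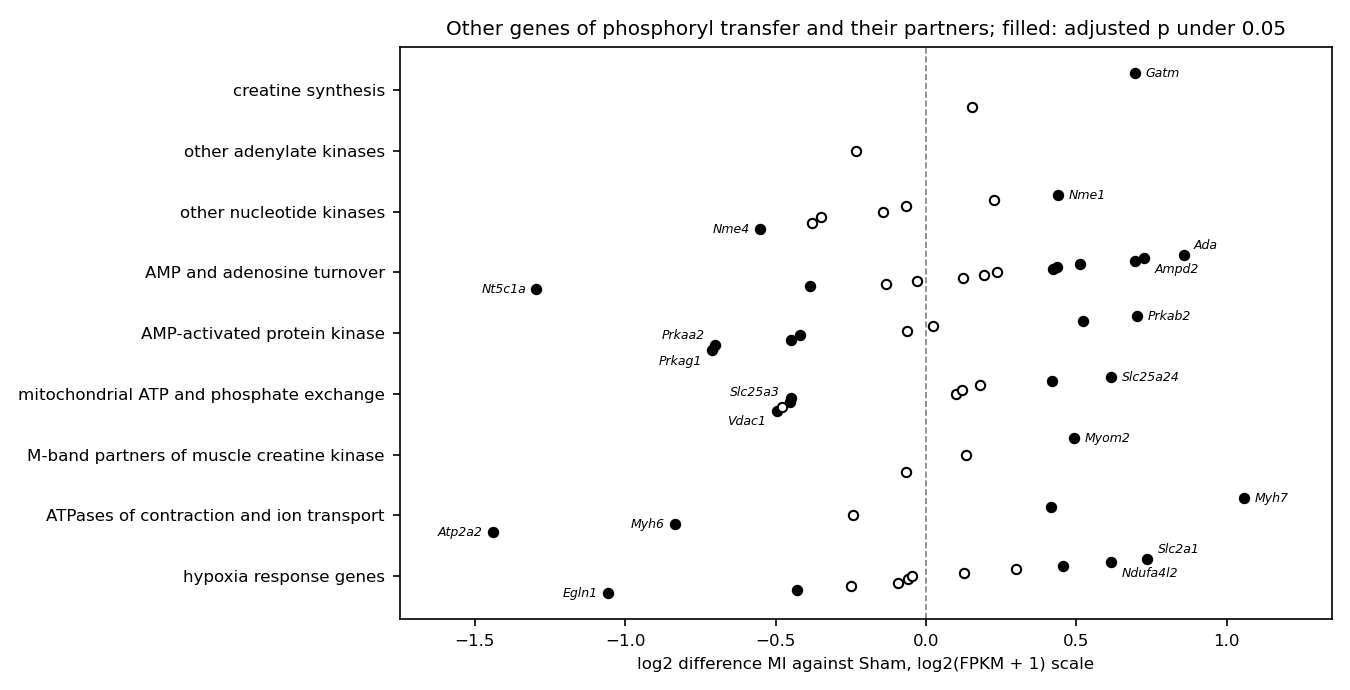
Log2 difference in MI against Sham (horizontal axis, log2(FPKM + 1) scale) of each tested gene in the 9 lists with tested genes; filled points passed at an adjusted p under 0.05 and up to 3 of them per list are named. Most lists hold filled points on both sides of 0, with Atp2a2 at -1.44 and Myh7 at 1.06 as the ends.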

How the data were processed

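The authors deposited FPKM, fragments per kilobase of gene after division by a factor for the library, for 54532 genes. The submitters' processing notes list build mm10 and the tools HISAT2, Subread with featureCounts, DESeq2 and R 3.5.1, but not their roles. How strand was treated in counting is not given in the sources used here. The deposited values resolve into whole fragments: 100% of those above 0 were within 0.01 of a whole multiple of the library's step. Between 21.5 M and 26.8 M fragments per library were assigned to genes.

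Tests used log2(FPKM + 1) and the 12585 genes that reached 1 FPKM in 5 or more of the 15 libraries. All groups entered a single limma 3.58.1 model (R 4.3.3) of group means, with eBayes, a mean trend and no replicate block; it was tested on simulated data. Calls are at a Benjamini-Hochberg adjusted p under 0.05, taken over all tested genes. The labels name no batch.

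The members and the pathway and marker lists were chosen with earlier results of these data known. Named were all members, per pathway list up to 3 called genes of largest difference in MI against Sham and every gene behind a count of 5 or fewer, and for each member the 3 most similar genes; a few genes these rules take are not reported here, nor counted in the lists. Alternatives were other pseudocounts, filters and scalings, fits of 2 groups, no trend, voom on recovered fragments, libraries left out, and a replicate block.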

Additional observations from a re-analysis of the deposited data

Results flagged for a closer look

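The creatine transporter gene Slc6a8 stood at 53.0 FPKM in GSK replicate 5, while the nearest of the other 4 GSK libraries was at 42.8. The gap was 0.851 of the range of the group, above Dixon's critical value of 0.71 for 5 samples. It was the only one of 30 groups of values examined in this way that passed, and chance alone flags about 5% of groups.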

How the results depend on the processing

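In MI against Sham, Ckb passed the test in all 29 alternatives; Ak4 lost its call in 1, Ak1 in 3 and Ckm in 6. Equalising library totals over all genes moved the median of all tested genes to 0.28 in MI against Sham, -0.14 in GSK against MI and 0.15 in GSK against Sham. Under it the members called in MI against Sham were 2, both higher: Ckb at 1.12 and Slc6a8 at 0.45 (adjusted p = 0.0029). Ckm (adjusted p = 0.131), Ak1 (0.279) and Ak4 (0.176) lost their calls. Relative to the shifted median the differences were 0.84 for Ckb, 0.18 for Slc6a8, -0.75 for Ckm, -0.50 for Ak1 and -0.48 for Ak4. The calls of all genes were then 5963 higher and 876 lower, and 3314 and 1927 with totals equalised without mitochondrial genes, against 2757 and 2758. Without the mixed Sham libraries 2 members were called in MI against Sham. Ckm also lost its call with no filter (adjusted p = 0.0556) and with quantile normalization (0.0580). In GSK against Sham 1 member was called with totals equalised over all genes, 4 with only the 2 groups fitted and 0 without Sham replicates 3 and 4, an alternative chosen after seeing the data.

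Values that changed sign were all outside the threshold. With totals equalised over all genes they were Ak3 at 0.069 in MI against Sham, Ak4 at -0.072 in GSK against MI, and Ckmt2 at 0.050, Slc6a8 at 0.077 and Ak3 at 0.17 in GSK against Sham. Relative to the shifted medians 4 of these 5 kept their sign (-0.21, 0.066, -0.095 and -0.068), and Ak3 in GSK against Sham was at 0.021. Equalised without mitochondrial genes, Slc6a8 stood at 0.010 and Ak3 at 0.10 in GSK against Sham. With quantile normalization Ckmt2 stood at 0.12 in MI against Sham, and Ckmt2 at 0.31 and Ak3 at 0.051 in GSK against Sham. Ak3 in GSK against Sham ranged from -0.10 to 0.059 with 1 library left out and was above 0 without Sham replicate 5 (0.024), GSK replicate 1 (0.059) or GSK replicate 2 (0.010). Without the 3 libraries with deviating mitochondrial shares r was 0.00097 for Ckmt2 and Ckb, 0.095 for Ckb and Ak3 and 0.51 for Ak3 and Ak4. Without MI replicate 2, also chosen after seeing the data, r turned to -0.18 for Ckm and Ckb, -0.097 for Ckm and Slc6a8, -0.15 for Ckmt2 and Slc6a8, -0.16 for Ckb and Ak1, -0.10 for Slc6a8 and Ak1 and -0.042 for Ak1 and Ak3. The causes were not tested. Beside those given with the results, calls of named pathway genes were lost in MI against Sham for Stk11 in 10, Adk in 9, Prkab1 in 6 and Ndufa4l2 in 4 of 29 alternatives, and in GSK against Sham for Prkag2 in 13, Prkag1 in 8 and Vegfa in 5 of 29 and Slc25a24 in 9 of 28; the other named calls of these lists were lost in at most 2.

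Genes called in GSK against MI numbered 3 with a pseudocount of 0.1 or 0.5, 2 with voom, and 0 to 391 with 1 library left out: 391 without MI replicate 1, 287 without GSK replicate 5, 26 without MI replicate 4 and 7 without GSK replicate 1. With 1 library left out, 1176 to 2874 genes were called in GSK against Sham and 4664 to 5642 in MI against Sham; 3 to 5 members were called in MI against Sham. A filter of 5 FPKM gave 3270 genes in MI against Sham and 1384 in GSK against Sham, with fewer genes tested. Without the mixed Sham libraries 1217 genes, and without Sham replicates 3 and 4 together 680 genes, were called in GSK against Sham. The replicate numbers have no stated meaning, and r of same-numbered libraries ran from -0.41 to 0.49. These values cannot settle whether the numbers pair the samples. With the replicate numbers as a block 5021, 0 and 1459 genes were called in the 3 comparisons, and the members called stayed at 4, 0 and 2.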
